A study of Mus musculus with 6 samples.

Results

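The expression of 10 genes of the contractile and pericyte program was described in colonies grown from single mouse bone marrow cells. The genes were chosen by name from what their products are known to do and fall into a set of 7 contractile and cytoskeletal genes (Acta2, Tagln, Cnn1, Myh11, Myl9, Tpm2 and Des) and a set of 3 genes used to mark pericytes (Cspg4, Mcam and Rgs5). All 10 were among the 14735 genes of the deposited table, and none was lost to a filter. Bulk RNA-seq compared 3 tdTOMATO+ with 3 tdTOMATO- colony-forming unit fibroblasts (CFU-Fs, plastic-adherent stromal colonies that each start from 1 cell) of Col10a1Cre; Rosa26-fs-tdTomato mice on a C57BL/6 background, aged 2 months. Both groups carried the same alleles and neither received a treatment. In these mice the promoter of Col10a1, a collagen gene of hypertrophic chondrocytes, drives Cre, which switches on tdTOMATO for good in a cell and its descendants, so the groups differ by whether the founding cell had that history. The cells were plated at clonal density and first incubated in 2% oxygen. Colonies were picked at day 10 inside cloning cylinders, so a library holds the RNA of every cell within 1 cylinder, whatever its type. The purpose of the comparison was to learn how stromal progenitors of the 2 origins differ.

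Smooth muscle cells, pericytes and activated fibroblasts shorten by sliding myosin along actin. Acta2 encodes the smooth muscle form of actin, Myh11 the smooth muscle myosin heavy chain and Myl9 the regulatory light chain whose phosphorylation starts contraction, while calponin (Cnn1), transgelin (Tagln) and beta-tropomyosin (Tpm2) bind the actin filament and desmin (Des) forms intermediate filaments that tie the fibres together. Many of these genes are switched on by serum response factor (SRF) with its cofactors myocardin or the MRTFs, which bind a short DNA element called the CArG box, and fibroblasts grown on stiff plastic are known to switch on part of the program. Pericytes, the mural cells of small vessels, are recognised by the proteoglycan NG2 (Cspg4), the adhesion molecule CD146 (Mcam) and the G-protein regulator Rgs5, none of which is restricted to them.

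The promoters of Myl9, Acta2 and Cspg4 are shown first because they hold the only matches to the CArG box among the members. Each is the 300-base window from 250 bases before to 50 bases after the RefSeq start of the gene on GRCm38.p6. The bases are written 5′ to 3′ on the strand of the gene, with matches in capitals. For these genes the RefSeq start differs from the gene start in the GENCODE coordinates given below. The windows lie at chr2:156775214-156775513 on the plus strand for Myl9, chr19:34255324-34255623 on the minus strand for Acta2 and chr9:56864854-56865153 on the plus strand for Cspg4.
Myl9: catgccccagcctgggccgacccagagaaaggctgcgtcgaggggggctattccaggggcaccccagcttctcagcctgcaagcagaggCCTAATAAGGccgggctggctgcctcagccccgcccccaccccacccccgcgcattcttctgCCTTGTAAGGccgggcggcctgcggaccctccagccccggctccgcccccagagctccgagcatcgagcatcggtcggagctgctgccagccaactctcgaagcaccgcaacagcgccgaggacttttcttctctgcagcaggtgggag
Acta2: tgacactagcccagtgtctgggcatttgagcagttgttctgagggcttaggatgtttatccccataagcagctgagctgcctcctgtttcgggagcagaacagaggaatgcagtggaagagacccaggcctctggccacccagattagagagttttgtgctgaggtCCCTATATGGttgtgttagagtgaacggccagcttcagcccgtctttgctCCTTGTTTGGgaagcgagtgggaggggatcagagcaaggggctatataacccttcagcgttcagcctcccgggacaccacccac
Cspg4: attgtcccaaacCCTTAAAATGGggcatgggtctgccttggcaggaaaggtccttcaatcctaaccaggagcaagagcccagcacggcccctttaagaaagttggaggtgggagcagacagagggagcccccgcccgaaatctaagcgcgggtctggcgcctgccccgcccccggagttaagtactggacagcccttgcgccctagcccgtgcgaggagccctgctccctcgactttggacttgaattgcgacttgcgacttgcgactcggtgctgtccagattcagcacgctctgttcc
The Myl9 window held an exact CArG box 161 bases before the start and a second element with 1 mismatch 99 bases before it. In Acta2 both marked elements, 84 and 34 bases before the RefSeq start, had 1 mismatch. By the GENCODE coordinates given below, both lie inside the Acta2 gene. In Cspg4 a pair of overlapping elements, each with 1 mismatch, began 238 and 237 bases before the start. The CArG box reads the same on both strands, so 1 search covers both. Of 8 members with a window in the table (Tagln and Myh11 had none), 1 held an exact box and 3 an exact or 1-mismatch element, while 1.63% of all 32851 windows held an exact box and 21.1% an element with at most 1 mismatch. A match is a stretch of letters in this window and not a measured binding site.

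Acta2, Tagln, Myl9, Tpm2 and Cnn1 were abundant in every colony, while Myh11, Des and the pericyte set were far lower. Per kilobase of exon, the mean over the 6 colonies was 50345 normalized counts for Acta2, 22657 for Tagln, 15534 for Myl9, 7719 for Tpm2 and 3223 for Cnn1. For these 5 genes the ranges over colonies did not overlap between any neighbours in this order. The place of Tagln is less certain, since 67.9% of its exon bases also lie in exons of other genes. Acta2 stood at place 5 of all genes per kilobase and took 0.338% to 0.472% of the reads of a colony. The order went on with Mcam at 225, Myh11 at 95.6, Cspg4 at 76.6, Rgs5 at 47.5 and Des at 43.5 normalized counts per kilobase. Mcam was above Myh11 in every colony, whereas Myh11 and Cspg4, and likewise Rgs5 and Des, overlapped in their ranges over the 6 colonies. All 10 genes together took 0.725%, 0.901% and 0.843% of the reads in tdTOMATO+ replicates 1 to 3 and 0.731%, 0.663% and 0.760% in tdTOMATO- replicates 1 to 3.

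**Figure D1:**
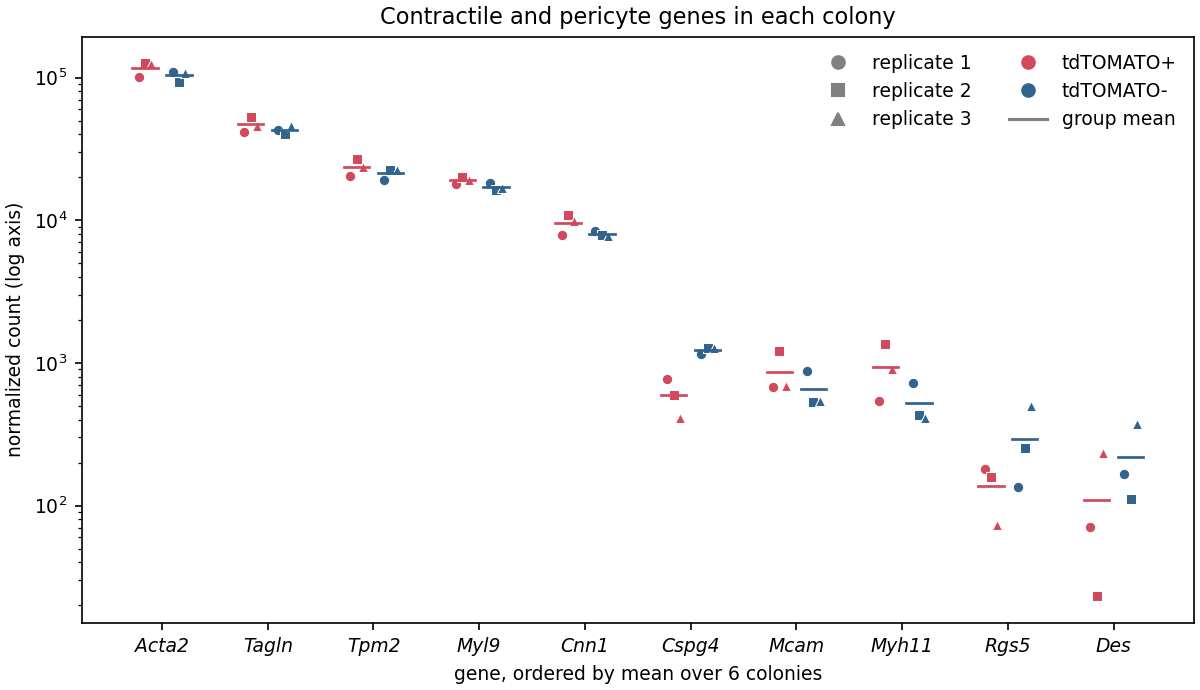
Normalized count of each of the 10 genes (vertical axes, log scale) in the 3 tdTOMATO+ and 3 tdTOMATO- colonies, 1 point for each colony, with a bar at the group mean. Cspg4 is the only gene whose groups do not overlap, with 413 to 777 normalized counts in tdTOMATO+ and 1156 to 1280 in tdTOMATO- colonies.

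Between the groups, 0 of the 10 genes passed an adjusted p of 0.05 in limma, fitted on log2 of the normalized count plus 1 over all 14735 genes, where 1.34% of all genes passed (177 higher and 21 lower in tdTOMATO+ CFU-Fs). At an unadjusted p under 0.05 the count was 1 of 10, Cspg4, beside 12.3% of all genes. The count tests on recovered reads gave 0 of 10 with edgeR at adjusted p under 0.05 (2 unadjusted, Cspg4 and Myh11), beside 1.24% of all genes, and 1 of 10 with DESeq2, Cspg4, beside 4.64%. Colonies of the groups did not overlap for 1 of 10, against 18.2% of all genes. The fitted log2 fold change of tdTOMATO+ over tdTOMATO- was above 0 for 7 members and below 0 for 3, with a median of 0.15 over the members and -0.0046 over all genes. The labels do not tie the colonies to individual mice. The p-values therefore measure only the spread between these colonies, which may be technical, and an exact permutation test of 3 against 3 cannot give a p below 0.1. In whole colonies, fewer cells of a type and less RNA per cell cannot be told apart.

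Acta2 (ENSMUSG00000035783, chromosome 19 from 34241090 to 34255590 on the minus strand, GRCm38) had 101123, 125801 and 125279 normalized counts in tdTOMATO+ replicates 1 to 3 and 109988, 93423 and 107729 in tdTOMATO- replicates 1 to 3. The lowest tdTOMATO+ colony fell inside the tdTOMATO- range, so the groups overlapped. Means were 117401 ± 14099 and 103713 ± 8983 (SD, n = 3 each), a log2 fold change of 0.18 (SE 0.12, 95% interval -0.11 to 0.46, limma adjusted p = 0.647). Smooth muscle actin was thus measured at a high level in colonies of both origins, and the interval leaves room for a difference of either sign.

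Tagln (ENSMUSG00000032085, chromosome 9 from 45929619 to 45936058), whose product crosslinks actin filaments, had 41827, 53088 and 46041 normalized counts in tdTOMATO+ replicates and 42938, 40534 and 45822 in tdTOMATO- replicates. The groups overlapped and the log2 fold change was 0.12 (SE 0.11, limma adjusted p = 0.752). Of the exon bases of Tagln, 67.9% also lie in exons of Pcsk7 or of an antisense gene, so its count may be uncertain where strand was not used. Pcsk7 itself had 768 to 838 normalized counts in the 6 colonies, far under the level of Tagln. Cnn1 (ENSMUSG00000001349, chromosome 9 from 22099216 to 22109630), the actin-binding inhibitor of myosin ATPase, had 7938, 10951 and 9925 normalized counts in tdTOMATO+ and 8451, 7836 and 7806 in tdTOMATO- replicates. Its lowest tdTOMATO+ colony lay among the tdTOMATO- colonies while the other 2 lay above them all. The log2 fold change of Cnn1 was 0.25 (SE 0.12, 95% interval -0.03 to 0.52, limma adjusted p = 0.466).

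Myl9 (ENSMUSG00000067818, chromosome 2 from 156775420 to 156781658), the light chain with the exact CArG box printed above, varied least. Its normalized counts were 18098, 19951 and 19034 in tdTOMATO+ and 18155, 16210 and 16855 in tdTOMATO- replicates. Only tdTOMATO- replicate 1 reached into the tdTOMATO+ range, and the log2 fold change was 0.16 (SE 0.08, 95% interval -0.02 to 0.34, limma adjusted p = 0.482). Tpm2 (ENSMUSG00000028464, chromosome 4 from 43514711 to 43523765), a tropomyosin that lies along the actin filament, had 20368, 26688 and 23537 normalized counts in tdTOMATO+ and 19075, 22595 and 22472 in tdTOMATO- replicates. The lowest tdTOMATO+ colony lay within the tdTOMATO- range, and the groups overlapped, with a log2 fold change of 0.13 (SE 0.12, limma adjusted p = 0.749).

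Myh11 (ENSMUSG00000018830, chromosome 16 from 14194535 to 14291372), the defining motor protein of mature smooth muscle, was far lower per kilobase than the other actomyosin genes. It had 539, 1354 and 904 normalized counts in tdTOMATO+ replicates and 718, 431 and 411 in tdTOMATO- replicates. The highest 2 colonies were tdTOMATO+, but tdTOMATO- replicate 1 exceeded the lowest tdTOMATO+ colony. The log2 fold change was 0.79 (SE 0.38, 95% interval -0.14 to 1.73), with a limma adjusted p of 0.488. Without tdTOMATO+ replicate 2 it was 0.47. Myh11 to Acta2 was not a fixed proportion, with 5.33, 10.8 and 7.22 normalized counts of Myh11 per 1000 of Acta2 in tdTOMATO+ and 6.53, 4.61 and 3.81 in tdTOMATO- replicates.

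Des (ENSMUSG00000026208, chromosome 1 from 75360329 to 75368579), the muscle intermediate filament, was the most variable member. Its normalized counts were 71.1, 23.2 and 234 in tdTOMATO+ and 167, 112 and 373 in tdTOMATO- replicates, and the highest colony was 16.1 times the lowest. In each group replicate 3 was the highest, and the groups overlapped. The log2 fold change was -1.37 (SE 0.91, 95% interval -3.62 to 0.88, limma adjusted p = 0.643) and ranged from -2.20 to -0.56 when 1 colony was left out, with the value nearest 0 without tdTOMATO+ replicate 2.

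Cspg4 (ENSMUSG00000032911, chromosome 9 from 56865033 to 56899870), the gene of the NG2 proteoglycan, was the member with the clearest gap between the groups. It had 777, 594 and 413 normalized counts in tdTOMATO+ replicates 1 to 3 and 1156, 1262 and 1280 in tdTOMATO- replicates 1 to 3. Every tdTOMATO- colony was above every tdTOMATO+ colony, and the tdTOMATO- colonies were close together. Means were 595 ± 182 and 1233 ± 66.7 (SD, n = 3 each), a log2 fold change of -1.10 (SE 0.22, 95% interval -1.62 to -0.57), or 2.14-fold higher in tdTOMATO- CFU-Fs. This missed the threshold in limma (unadjusted p = 0.00180, adjusted p = 0.0804) and in edgeR (adjusted p = 0.0697) and passed it in DESeq2 (adjusted p = 7.88e-05). Without tdTOMATO+ replicate 3, the lowest colony, the limma adjusted p was 0.0497 with a log2 fold change of -0.86, and over all 6 ways of leaving out a colony the adjusted p ran from 0.0497 to 0.262.

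Ratios of Cspg4 to Acta2, Mcam and Pdgfrb of the same colony were also taken, a comparison chosen after the values had been seen. Cspg4 was already separated, Acta2 and Pdgfrb varied less between colonies, and Mcam had a fold change of the opposite sign. Separation of the ratios was therefore close to fixed in advance, and they add no support to the Cspg4 difference. There were 7.69, 4.72 and 3.30 normalized counts of Cspg4 per 1000 of Acta2 in tdTOMATO+ and 10.5, 13.5 and 11.9 in tdTOMATO- replicates. Per count of Mcam there were 1.14, 0.492 and 0.604 in tdTOMATO+ and 1.31, 2.36 and 2.36 in tdTOMATO- replicates. In both ratios all tdTOMATO- colonies were the higher. The log2 ratio was lower in tdTOMATO+ by 1.27 against Acta2, by 1.47 against Mcam and by 1.16 against Pdgfrb, with an exact permutation p of 0.1 for each, the smallest that 20 arrangements allow.

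Mcam (ENSMUSG00000032135, chromosome 9 from 44134469 to 44142727), which encodes CD146, a surface protein of pericytes, endothelium and marrow stromal progenitors, had 679, 1208 and 684 normalized counts in tdTOMATO+ and 883, 535 and 542 in tdTOMATO- replicates. The groups overlapped, and the log2 fold change was 0.38 (SE 0.30, 95% interval -0.35 to 1.10, limma adjusted p = 0.711). With 1 colony left out it ran from 0.10, without tdTOMATO+ replicate 2, to 0.61, without tdTOMATO- replicate 1. Rgs5 (ENSMUSG00000026678, chromosome 1 from 169655501 to 169695813), a brake on G-protein signalling in mural cells, had 179, 159 and 73.4 normalized counts in tdTOMATO+ and 134, 254 and 497 in tdTOMATO- replicates. The highest 2 colonies were tdTOMATO-, and the third lay within the tdTOMATO+ range. Its log2 fold change was -0.999 (SE 0.55, 95% interval -2.34 to 0.34, limma adjusted p = 0.558) and ran from -1.47 to -0.52 with 1 colony left out, nearest 0 without tdTOMATO- replicate 3. The markers of the pericyte set therefore did not share a sign, with Mcam above 0 and Cspg4 and Rgs5 below it.

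**Figure D2:**
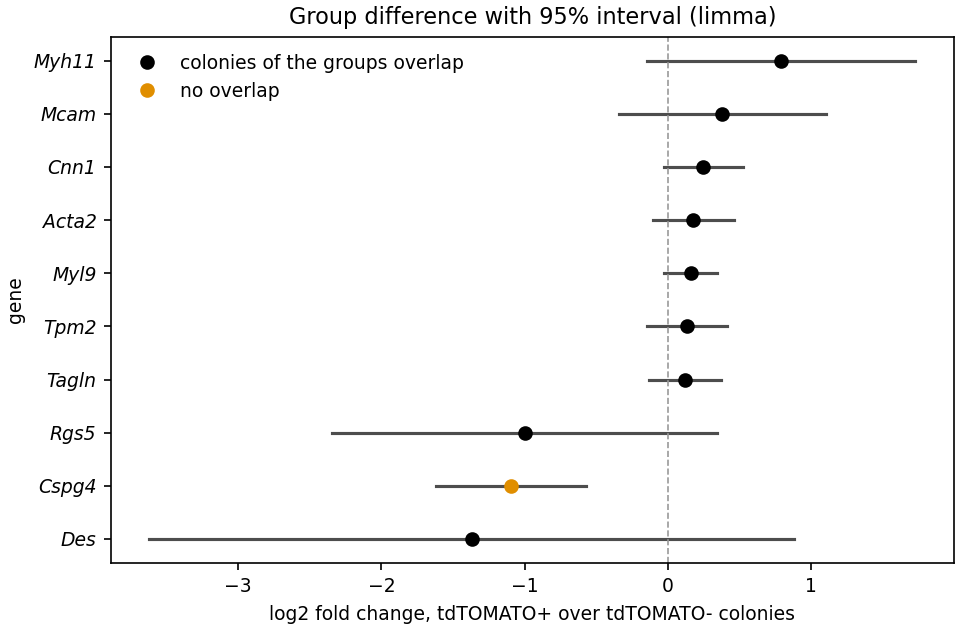
Log2 fold change of tdTOMATO+ over tdTOMATO- colonies (horizontal axis) for each gene, with the limma estimate as a point and its 95% interval as a bar. Cspg4 is the only gene whose interval, -1.62 to -0.57, leaves out 0, and Des has the widest interval, -3.62 to 0.88.

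The spread between colonies of 1 group separated the abundant contractile genes from the rest of the members. The SD of the log2 value within groups was 0.08 for Myl9, 0.14 for Tagln, 0.16 for Acta2 and 0.17 for both Tpm2 and Cnn1. These lie near the median of 0.14 over the 11672 genes that averaged 50 normalized counts or more. The same SD was 0.33 for Cspg4, 0.44 for Mcam, 0.57 for Myh11, 0.83 for Rgs5 and 1.32 for Des. Highest over lowest colony, the ratio was 1.23 to 1.40 for the first 5 genes and 2.26 to 16.1 for the other 5, beside a median of 1.32.

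Single colonies tended to stand at the top of several members at once. tdTOMATO+ replicate 2 was the highest colony for 7 of the 10 genes, namely all of Acta2, Tagln, Cnn1, Myl9, Tpm2 and Myh11 and also Mcam, whereas it was the highest for 12.8% of all genes. Without this colony the log2 fold change was 0.12 for Acta2 and Myl9, 0.15 for Cnn1, 0.03 for Tagln and 0.04 for Tpm2. The remaining 3 genes, Cspg4, Rgs5 and Des, were all highest in tdTOMATO- replicate 3. At the low end, tdTOMATO- replicate 2 was lowest for 4 genes and no other colony for more than 2. These genes share libraries and are related in function, so they are not 10 separate observations.

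**Figure D3:**
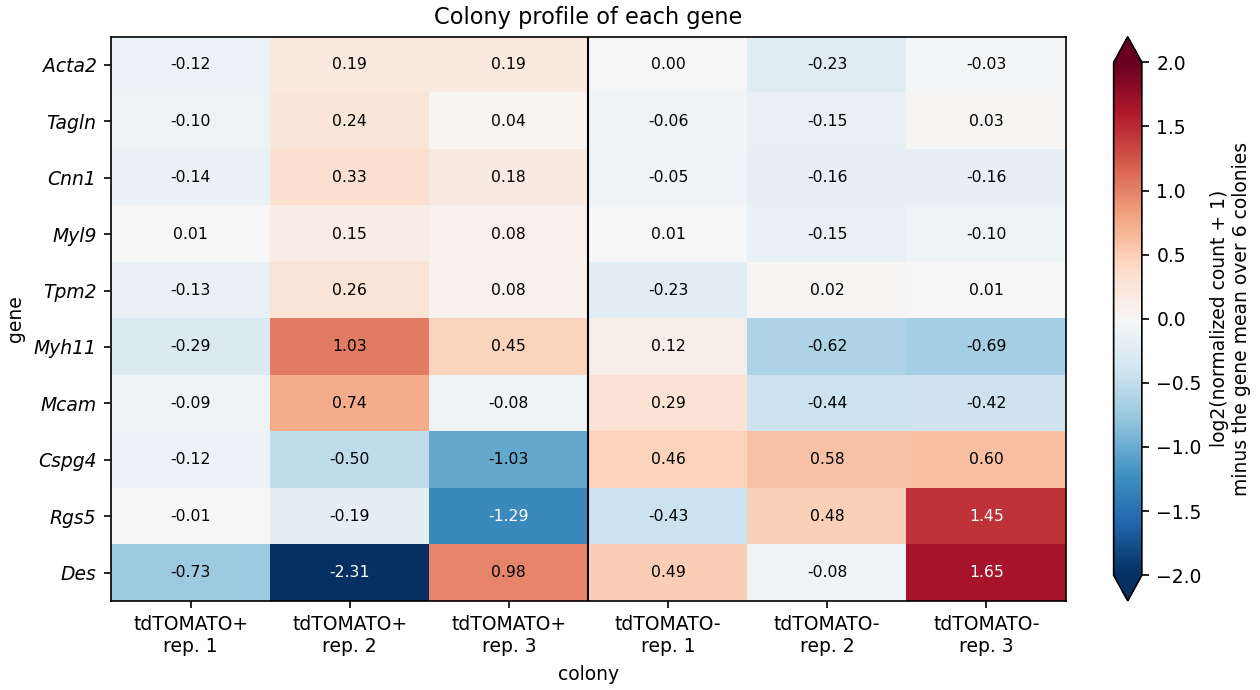
Log2 of the normalized count plus 1, less the mean of the gene over the 6 colonies (colour, with the value in each cell), for the 10 genes in rows and the 6 colonies in columns. tdTOMATO+ replicate 2 is above the gene mean for Myh11 by 1.03 and for Mcam by 0.74 and lowest for Des at -2.31, and tdTOMATO- replicate 3 is highest for Des and Rgs5 at 1.65 and 1.45.

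By the root mean square difference of centred log2 values over the 6 colonies, the genes most like Acta2 among 11671 compared were Fam162a (0.051), Pgk1 (0.051), Jazf1 (0.052), 4931428F04Rik (0.054) and Cd81 (0.056), against a median of 0.212. Fam162a is a mitochondrial protein, Pgk1 a glycolytic enzyme and Cd81 a tetraspanin of the cell surface. Among the members, Tagln, Myl9 and Cnn1 came at places 52, 55 and 60, Tpm2 at 1667, and Mcam, Myh11, Cspg4, Rgs5 and Des at 9386 or beyond. Genes whose colonies hardly vary all lie close in this measure, so the place of a gene describes the flatness of its profile as much as its shape.

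Other genes of smooth muscle contraction were read from a list. Of 16 further contractile genes, 0 passed limma in either direction, the median log2 fold change was 0.08, and 3 had colonies that did not overlap and were higher in tdTOMATO+ against 1 that was lower. The most abundant were Cald1 (caldesmon, which holds back myosin on actin) at a log2 fold change of -0.12, Tpm1 (alpha-tropomyosin) at 0.52 and Mylk (the kinase that phosphorylates Myl9) at -0.03. Tpm1 had 46304, 50010 and 59799 normalized counts in tdTOMATO+ and 39332, 34337 and 35027 in tdTOMATO- replicates. All 3 of its tdTOMATO+ colonies were above all tdTOMATO- colonies, yet its adjusted p was 0.0897 in limma and 0.104 in edgeR, and 0.00104 in DESeq2. For Actg2, the enteric smooth muscle actin, the counts were 13220, 18189 and 28139 in tdTOMATO+ and 9018, 4627 and 19420 in tdTOMATO- replicates, an overlap with a log2 fold change of 1.02 (SE 0.57, limma adjusted p = 0.579).

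The transcription factors that drive the program were measured in every colony. Of 14 genes of SRF, MRTFs and their cofactors and inhibitors, 0 passed limma or DESeq2, and the median log2 fold change was -0.02, or 0.03 without tdTOMATO+ replicate 3 or tdTOMATO- replicate 1. Srf had 2096 to 2706 normalized counts and a log2 fold change of 0.09 (SE 0.10). Myocd, the myocardin of smooth muscle and heart, had 215 to 523 normalized counts and a log2 fold change of 0.02 (SE 0.39). The most abundant genes of that list were the LIM-domain proteins Fhl1 (-0.28), Tgfb1i1 (-0.02) and Csrp2 (-0.05), all with overlapping groups.

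Many non-muscle relatives of the members are expressed by nearly all cells, though the list read here also holds muscle actins. Of 17 actin, myosin and filament paralogs in the table, 0 passed limma or DESeq2, with a median log2 fold change of 0.04, or -0.01 without tdTOMATO- replicate 1. The 3 most abundant were vimentin (Vim, -0.02), beta-actin (Actb, 0.16) and the non-muscle myosin heavy chain Myh9 (0.12). Per kilobase of exon, Acta2 had 50345 and beta-actin 39928 normalized counts, but before division by length they were close, at 110557 and 106967. Their order is uncertain, since it depends on the exon length used and 14.2% of the 50-base windows of the beta-actin transcript recur in other genes. Reads that could come from a related gene were few for the members, since 0.352% of the 50-base windows of the Acta2 transcript and 0.400% of those of Myh11 recur in another gene, mostly of their own family. The share was 5.81% for Des and 48.3% for Tagln, from genes that overlap or resemble them, and 0 for the other 6.

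**Figure D4:**
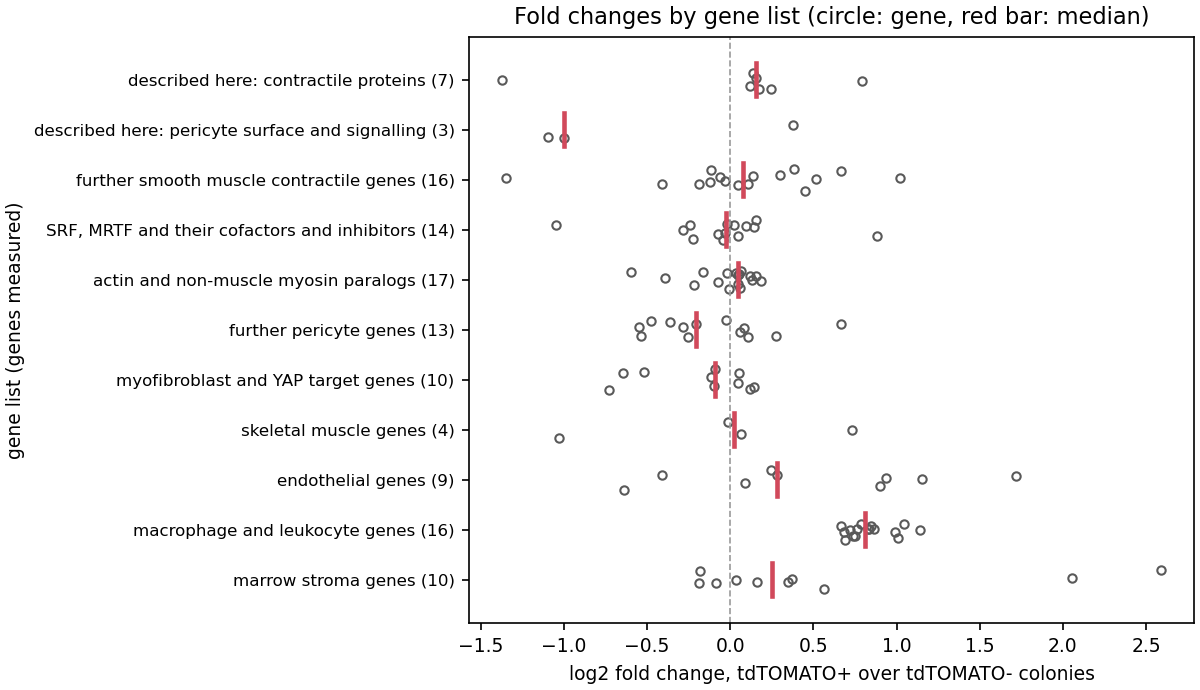
Log2 fold change of tdTOMATO+ over tdTOMATO- colonies (horizontal axis) of every gene (circles) in each list (rows, number of measured genes in brackets), with the list median as a red bar. The medians are 0.16 for the 7 contractile genes and -0.999 for the 3 pericyte genes, and all 16 macrophage and leukocyte genes lie above 0.

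Of 18 further genes used to mark pericytes, 13 were in the table and 0 passed limma. Their median log2 fold change was -0.21, which became 0.19 without tdTOMATO- replicate 3. Pdgfrb, the receptor by which pericytes are recruited to vessels and which marrow stroma also carries, had 5700 to 8582 normalized counts and a log2 fold change of 0.06 (SE 0.15). Ndufa4l2 was at -0.28, with 2570 to 9012 normalized counts, and Cd248 at 0.27, with 2276 to 4715. The gene called by DESeq2 was Anpep, a surface peptidase, at 0.66 (DESeq2 adjusted p = 0.0250, limma adjusted p = 0.227). Vtn, Higd1b, Heyl, Atp13a5 and Art3 were not in the table, and the potassium channel gene Kcnj8, a defining gene of brain pericytes, had 0 to 12.5 normalized counts. Other genes of the list were measured in every colony, with 1785 to 2556 normalized counts for Notch3, 583 to 1480 for Cox4i2 and 57.2 to 463 for Abcc9. Some genes used to mark pericytes were thus absent or near 0 while others were present. The genes of the pericyte set are named here by what they encode and not as evidence of pericytes.

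Genes that fibroblasts switch on with contractile activation were also read. Of 10 myofibroblast and YAP target genes, 0 passed limma (1 without tdTOMATO- replicate 1), and their log2 fold changes had a median of -0.09. The most abundant were fibronectin (Fn1, -0.12), thrombospondin 1 (Thbs1, -0.09) and lysyl oxidase (Lox, -0.65). Lox, which crosslinks collagen, had 142949 to 185489 normalized counts in tdTOMATO+ and 197291 to 277443 in tdTOMATO- colonies with no overlap. It missed limma (adjusted p = 0.150) and passed DESeq2 (adjusted p = 0.00299).

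Markers of the other cell types a cylinder could hold were read beside these results. Among skeletal muscle genes, 4 of 12 were in the table, and Myod1, Myog, Myf5, Ckm, Myh1, Myh2, Myh3 and Ttn were not. None of the 4 passed limma, their median log2 fold change was 0.02 (-0.20 without tdTOMATO+ replicate 1), and the most abundant were Neb (39.2 to 140 normalized counts), Mylpf (11.4 to 20.1) and Tnni2 (7.02 to 21.1). Of 14 endothelial genes 9 were in the table, with summed normalized counts of 285 to 307 in tdTOMATO+ and 181 to 259 in tdTOMATO- colonies, and 0 passed limma (median log2 fold change 0.28, but -0.31 without tdTOMATO+ replicate 3 and 0.86 without tdTOMATO+ replicate 1). The most abundant were Kdr (59.3 to 178 normalized counts), Egfl7 (27.4 to 61.8) and Vwf (14.9 to 66.3). The defining endothelial gene Cdh5 had 0.964 to 36.2 and Pecam1 0 to 48.2 normalized counts. Macrophage and leukocyte genes moved with the groups. All 16 had a log2 fold change above 0 with no overlap between the groups, 14 passed limma, and their summed normalized counts were 75473 to 81750 in tdTOMATO+ and 43946 to 44057 in tdTOMATO- colonies, with none at 0. The count of 14 rested on single colonies and on the trend, with 1 called without tdTOMATO+ replicate 1, 1 without tdTOMATO+ replicate 2, 2 without tdTOMATO- replicate 2 and 0 in limma without the trend. The list median of 0.81 stayed between 0.76 and 0.84 over all the alternatives tried. Lyz2 (0.84), Csf1r (0.67) and Mrc1 (0.87) were the most abundant, and Cd68 (1.05, limma adjusted p = 0.00546), Csf1r, Emr1 and C1qb had the smallest p. The part of these cells in the Cspg4 difference was not tested. Among marrow stroma genes the most abundant was Cxcl12, with 40673 to 87775 normalized counts. Ebf1 followed with 3738 to 4575 and Kitl with 1108 to 4837. Other genes of that list were uneven or low, with 281 to 2163 for Grem1 and 0 to 100 for Adipoq, which was at 0 in tdTOMATO- replicate 1. Of 10 such marrow stroma genes 0 passed limma, with a median log2 fold change of 0.25 that became -0.10 without tdTOMATO- replicate 1. In limma 1 was called higher with the replicate block, 1 higher without tdTOMATO+ replicate 3 and 1 lower without tdTOMATO- replicate 1. DESeq2 called 1 of the 10, Lepr, the leptin receptor of marrow stroma, named after its values had been seen. Lepr had 408, 354 and 1132 normalized counts in tdTOMATO+ and 97.3, 69.4 and 108 in tdTOMATO- replicates, with no overlap. Its log2 fold change was 2.59 (SE 0.46, limma adjusted p = 0.0647, DESeq2 adjusted p = 4.93e-09).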

How the data were processed

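RNA of 6 CFU-F colonies was sequenced (single-end, 50 bp). For each gene, the authors counted uniquely placed STAR alignments to GRCm38 with HTSeq, required 10 or more reads in 1 of the libraries, and scaled by DESeq2 size factors; the deposited expression signal is this normalized count. Tool versions are not given in the sources used here. The authors' own log2 fold changes, p-values, subset tables and ontology tables were not used.

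Groups follow the sample labels. limma 3.58.1 (R 4.3.3; trend and robust, two-sided) was run on log2 of the normalized count plus 1 for all 14735 genes, with Benjamini-Hochberg adjustment over all of them and a threshold of 0.05. A fold change is on that log2 scale, where the added 1 shrinks the change of low genes. It is not always the smaller estimate, since Des was at -1.37 in limma and at -0.99 in both edgeR and DESeq2. All values (100% within a tolerance of 0.001) were whole multiples of a step per library, so reads were recovered (24085516 to 31046589 in genes per colony) and used in edgeR 4.0.16 (quasi-likelihood, 182 genes called) and DESeq2 1.42.0 as alternatives. For replicate 3 of each group the step is so close to 1 that recovery rests on the unrounded values, and an automated test of the steps did not accept it. Coordinates and exon lengths are from GENCODE M21 (GRCm38), and promoters from RefSeq.

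The members and lists were chosen with earlier results of these data known. Named genes are all members, the 3 most abundant of each other list, genes of defining cell types under 10 normalized counts, up to 4 genes of smallest p past the threshold in a list, and the 5 nearest to Acta2. Tpm1 is named by this rule. Actg2, Srf, Myocd, Anpep, Kcnj8, Notch3, Cox4i2, Abcc9, Cdh5, Pecam1, Grem1, Adipoq and Pcsk7 were named after their values had been seen. Some genes of the lists are not reported here by name. Other pseudocounts (0.5 and 10), a mean of at least 50, no trend, TMM scaling, a replicate block and leaving out each colony were tried.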

Additional observations from a re-analysis of the deposited data

How the results depend on the processing

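No member changed the sign of its fold change under any alternative tried. The count of members called was 0 in limma and edgeR and under each scaling, pseudocount and filter tried, 1 with DESeq2 (Cspg4, log2 fold change -1.05), and 0 to 1 when a colony was left out, the 1 being Cspg4 without tdTOMATO+ replicate 3. With a colony left out, the log2 fold change of Cspg4 ran from -1.31 to -0.86. Over the whole table the count of genes past the limma threshold was 177 on the side of tdTOMATO+ and 21 on the other. These counts were 1 and 0 without the trend in limma and 498 and 159 with DESeq2, and ran from 1 to 178 and from 0 to 44 with a colony left out, with the fewest in both directions without tdTOMATO+ replicate 2. The cause was not tested. TMM scaling moved the median of all genes by less than 0.01.

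The labels number the colonies of each group, but nothing says that equal numbers share an animal or day. Deviations of same-numbered colonies correlated at 0.100, 0.012 and 0.200, and not every colony correlated best with its own number. With the replicate number as a block, 124 genes were called higher and 24 lower, and 0 members (Cspg4 at limma adjusted p = 0.133).

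With 3 colonies a group, precision was lowest for Des, Rgs5 and Myh11, which have the widest intervals of the members. Rgs5 and Des are also low, and Des had as few as 23.2 normalized counts in a colony.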
